A study of Mus musculus with 9 samples.

Results

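Cajal-Retzius cells are described here through 8 genes that mark them: Reln, Trp73, Calb2, Ndnf, Lhx1, Lhx5, Ebf3 and Cacna2d2. They were taken by name, as a list of cell type markers, and are 8 of the 35498 genes to which the transcript counts were summed. The list was written with earlier results of these data known. RNA came from whole cortical tissue of C57Bl/6 mouse embryos at E13.5, in 3 libraries per genotype. DKO embryos were Smarca1 -/- with a Cre +/- allele, and the design text names them the Smarca5 and Smarca1 double knockout. Smarca1 KO embryos were Smarca1 -/- and Cre -/-, so that DKO embryos share the Smarca1 loss with them. WT embryos were Smarca1 +/+ and Cre -/-. Which promoter drives Cre, which exons were deleted and what Smarca5 alleles the Smarca1 KO and WT embryos carry is not stated in the labels. These do not tie replicates to separate embryos either, and the p-values below therefore reflect spread between libraries that may be only technical.

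Cajal-Retzius cells are among the earliest neurons of the cortex. They arise at the edges of the cortical field, in the cortical hem, the septum, the border of the pallium and the thalamic eminence, and spread under the meninges into the marginal zone. There they secrete reelin, which binds the receptors Vldlr and Lrp8 on migrating neurons, acts through the adaptor Dab1 and guides the layering of the cortex. The p53 relative Trp73 is needed for their maintenance in mice. Smarca5 (SNF2H) and Smarca1 (SNF2L) are the ATPases of ISWI chromatin remodellers, which slide and space nucleosomes.

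Promoter sequences from RefSeq on GRCm38.p6 were found for 5 of the 8 genes, 6 promoters in all, and 4 are printed because they are promoters of the transcription factors of the list, Trp73 with both of its start sites. Each runs from 250 bases before the start site to 50 bases into the transcript, 5′ to 3′ on the gene's strand, and capitals mark the transcribed bases. All 4 lie on the minus strand. They are the internal Trp73 promoter at chr4:154097124-154097423, the upstream Trp73 promoter at chr4:154139826-154140125, the Lhx1 promoter at chr11:84525485-84525784 and the Ebf3 promoter at chr7:137314396-137314695.
Trp73, internal start: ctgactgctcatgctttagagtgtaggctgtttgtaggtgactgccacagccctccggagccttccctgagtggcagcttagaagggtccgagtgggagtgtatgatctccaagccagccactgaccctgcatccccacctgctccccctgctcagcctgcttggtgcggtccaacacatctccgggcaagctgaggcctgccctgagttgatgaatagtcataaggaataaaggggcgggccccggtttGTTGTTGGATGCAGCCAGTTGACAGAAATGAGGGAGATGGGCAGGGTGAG
Trp73, upstream start: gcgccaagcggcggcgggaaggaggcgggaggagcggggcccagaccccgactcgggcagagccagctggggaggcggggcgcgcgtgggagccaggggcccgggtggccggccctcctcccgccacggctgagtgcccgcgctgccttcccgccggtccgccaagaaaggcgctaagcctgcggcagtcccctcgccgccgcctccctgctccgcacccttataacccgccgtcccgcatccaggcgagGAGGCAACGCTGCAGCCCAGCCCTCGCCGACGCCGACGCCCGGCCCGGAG
Lhx1: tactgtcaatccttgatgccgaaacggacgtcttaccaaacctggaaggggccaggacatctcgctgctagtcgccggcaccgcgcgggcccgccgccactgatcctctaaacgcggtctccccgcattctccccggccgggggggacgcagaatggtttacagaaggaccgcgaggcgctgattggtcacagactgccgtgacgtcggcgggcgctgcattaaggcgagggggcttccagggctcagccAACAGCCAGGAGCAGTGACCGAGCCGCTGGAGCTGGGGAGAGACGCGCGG
Ebf3: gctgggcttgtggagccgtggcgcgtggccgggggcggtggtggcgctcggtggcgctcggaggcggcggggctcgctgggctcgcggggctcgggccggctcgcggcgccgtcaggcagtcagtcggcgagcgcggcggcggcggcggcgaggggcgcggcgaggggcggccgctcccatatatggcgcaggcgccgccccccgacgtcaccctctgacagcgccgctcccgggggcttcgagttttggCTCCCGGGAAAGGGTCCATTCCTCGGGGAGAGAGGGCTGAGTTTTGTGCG
The internal Trp73 promoter held 6 CG dinucleotides, against a median of 7 over all promoters of the same length. The upstream Trp73 promoter held 39, the Lhx1 promoter 31 and the Ebf3 promoter 46. Reln, at 47, and Cacna2d2, at 43, were also above that median, so the internal Trp73 promoter stood apart from the other 5 in its few CG dinucleotides. The homeodomain motif TAATTA, which is its own reverse complement, is in 5.29% of 32851 promoters. It was in none of the 6 promoters of these genes, which says only that these letters are not in these windows.

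Nearly all Trp73 counts came from 2 of its 7 annotated transcripts. Trp73-205 starts at the internal site, from which forms without the N-terminal transactivation domain arise, and its GENCODE start is the start of the internal promoter printed above. Trp73-204 starts 43035 bases further upstream, and its GENCODE start lies 333 bases upstream of the RefSeq start of the printed upstream promoter. The transcripts differ in 280 bases found only in Trp73-205 and 570 found only in Trp73-204, so the division of reads rests on short stretches. Trp73-205 held 71.0%, 79.8% and 75.4% of the Trp73 counts in DKO libraries, 76.6%, 76.2% and 82.1% in Smarca1 KO libraries, and 68.6%, 82.1% and 66.7% in WT libraries. By these estimates the shorter form from the internal start was the larger part in each library, and the shares of the 3 genotypes overlapped. Exons of Trp73os, an antisense gene that was not counted, overlap those of Trp73. Whether its reads were assigned to the 280 bases found only in Trp73-205 is not known, so the division may include them. Trp73-205 was at 11.1 ± 0.465 TPM in DKO, 8.57 ± 1.46 TPM in Smarca1 KO and 8.18 ± 0.992 TPM in WT (SD, n = 3 each). Trp73-204 was at 3.43 ± 0.741 TPM in DKO, 2.22 ± 0.545 TPM in Smarca1 KO and 2.86 ± 0.887 TPM in WT (SD, n = 3 each). TPM is the level per transcript length, scaled to a fixed total in each library. No test was made on transcripts.

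**Figure D1:**
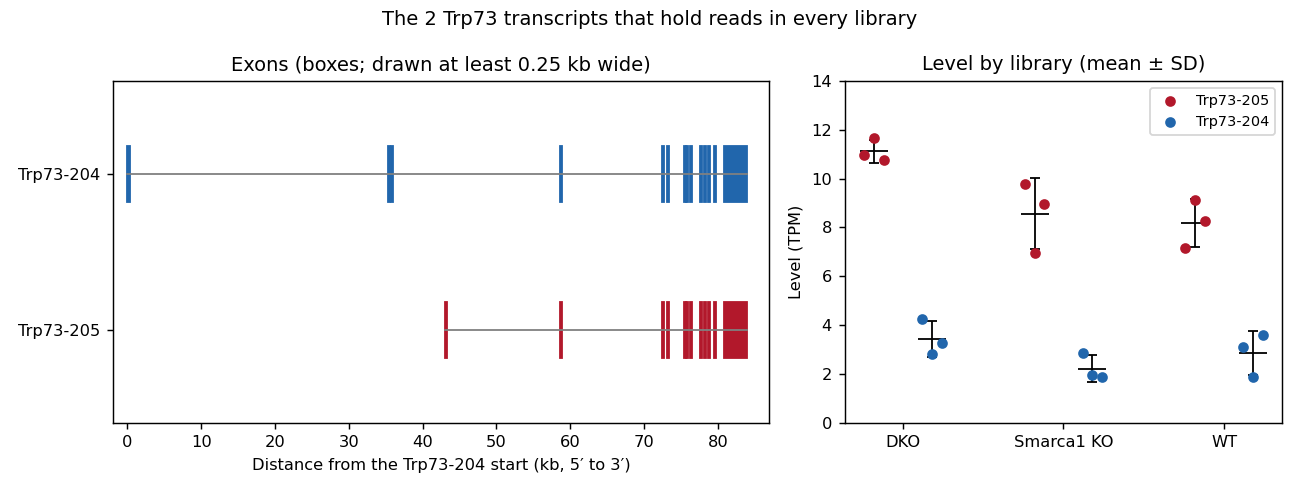
Trp73 transcripts Trp73-205 and Trp73-204, drawn by distance from the upstream start site, and their TPM in each library, with DKO left of Smarca1 KO and WT. In DKO libraries Trp73-205 lies between 10.8 and 11.7 TPM, above the 6.95 to 9.80 TPM of the other 6 libraries, while Trp73-204 overlaps among the genotypes.

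The 9 libraries held 27466225 to 46007718 estimated counts. Smarca5 RNA, the check of the labels, was lower in DKO as labelled, at 84.4, 79.2 and 77.2 CPM. Smarca1 KO libraries had 246, 243 and 212 CPM of it, and WT libraries had 267, 271 and 262 CPM. Smarca1 RNA lay between 37.9 and 38.8 CPM in DKO, between 35.3 and 43.8 CPM in Smarca1 KO, and between 36.4 and 37.8 CPM in WT. The deleted exons are not given, so this level does not check the Smarca1 label, and each direction drawn from the Smarca1 KO group rests on that label. The library of Smarca1 KO replicate 2 stood apart in diencephalic genes: their mean log2 deviation from the 9 libraries was -1.32 there, and between -0.10 and 0.47 in the other 8. Meningeal genes were highest in DKO replicate 1 and Smarca1 KO replicate 1, at log2 deviations of 0.62 and 0.64, against -0.45 to 0.12 in the other 7 libraries. The summed level of 4 Y-linked genes was 239 to 247 CPM in DKO, 253 to 268 CPM in Smarca1 KO and 258 to 266 CPM in WT, and 1 of them, Ddx3y, fell in DKO against WT (-0.26, SE 0.06, edgeR adjusted p = 0.0279). CPM throughout are counts scaled to a fixed library total, with TMM factors.

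Each of the 8 genes passed the filter on low counts, which left 15773 genes, so the label's markers were present. Their levels spanned a wide range when compared per length, as the summed TPM of protein-coding transcripts. In WT the order of these TPM levels was Reln at 35.1, Cacna2d2 at 17.2, Trp73 at 11.3, Calb2 at 9.02, Ebf3 at 8.64, Lhx5 at 5.83, Lhx1 at 4.57 and Ndnf at 1.11. The WT libraries of Trp73 and Calb2 overlapped, as did those of Calb2 and Ebf3, while the other neighbours were apart. In Smarca1 KO the order was Reln, Cacna2d2, Calb2, Trp73, Lhx5, Ebf3, Lhx1 and Ndnf, and in DKO it was Reln, Cacna2d2, Calb2, Trp73, Ebf3, Lhx5, Lhx1 and Ndnf. Calb2 therefore stood above Trp73 by its mean in both mutant genotypes, at 18.9 against 14.7 TPM in DKO, with libraries apart, and at 14.3 against 11.0 TPM in Smarca1 KO, with libraries overlapping. By the TPM of all transcripts in WT, Reln stood at the 86.8th percentile of the tested genes and Ndnf at the 14.1th. Only coding transcripts were used for the order because short non-coding fragments of Reln add much TPM for few counts: with them the Reln level in WT was 93.3 TPM, although coding transcripts held 79.0% to 85.0% of its counts.

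The first question was how the double knockout differed from WT. In the DKO cortex 3 of the 8 genes rose against WT by edgeR's test: Calb2, Ndnf and Trp73. None fell. Of all genes tested, 12.0% passed this test and 5.61% rose. All 8 differences were positive, with a median log2 fold change of 0.43, against 0.0078 over all genes. For 7 of the 8, all but Ebf3, each DKO library lay above each WT library, which held for 20.9% of all genes. Because the 8 genes were chosen with earlier results of these data known, these counts are a description only. In whole tissue, more cells of a type and more RNA per cell cannot be told apart.

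Reln and Ndnf are the secreted proteins of the list. Reln (ENSMUSG00000042453.14, chromosome 5, 21884454 to 22344702, minus strand, GRCm38) encodes reelin and had 7352 to 14430 counts per library. It was at 303, 328 and 314 CPM in DKO, against 286, 258 and 264 CPM in WT. The DKO libraries were all above the WT libraries, yet the log2 fold change of 0.23 (SE 0.10, edgeR adjusted p = 0.146) did not pass the test. Ndnf (ENSMUSG00000049001.5, chromosome 6, 65671590 to 65712326, plus strand) encodes a secreted neurotrophic factor that marks Cajal-Retzius cells and other marginal zone neurons. It was at 8.68, 8.55 and 10.2 CPM in DKO, against 6.76, 5.51 and 5.23 CPM in WT. Ndnf rose by 0.65 on the log2 scale (SE 0.15, edgeR adjusted p = 0.0277). Among the alternatives, effective-length offsets gave Ndnf 1.27. The gene length used there is weighted by transcript TPM, which includes Ndnf-202, a retained-intron transcript of 527 bases with at most 10.5 counts in a library. Coding transcripts alone were at 1.69 TPM in DKO and 1.11 TPM in WT.

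Trp73, Lhx1, Lhx5 and Ebf3 encode transcription factors. Trp73 (ENSMUSG00000029026.16, chromosome 4, 154056253 to 154140208, minus strand) was at 40.7, 37.9 and 37.2 CPM in DKO, against 26.9, 28.9 and 32.4 CPM in WT. The groups did not overlap, and Trp73 rose by 0.39 (SE 0.11, edgeR adjusted p = 0.0462), just inside the threshold of 0.05. Lhx1 (ENSMUSG00000018698.15, chromosome 11, 84518284 to 84525535, minus strand), a LIM homeodomain factor, was at 11.9, 10.9 and 9.71 CPM in DKO, against 7.89, 7.97 and 7.65 CPM in WT, and its log2 fold change of 0.47 (SE 0.21, edgeR adjusted p = 0.159) did not pass. The related LIM homeodomain factor Lhx5 (ENSMUSG00000029595.9, chromosome 5, 120431699 to 120441223, plus strand), which takes part in Cajal-Retzius cell development in mice, was at 11.8, 12.8 and 8.62 CPM in DKO, against 8.22, 7.80 and 8.203 CPM in WT. Its DKO replicate 3 lay close to the WT libraries, and the log2 fold change of 0.45 (SE 0.19, edgeR adjusted p = 0.147) did not pass. Ebf3 (ENSMUSG00000010476.14, chromosome 7, 137193673 to 137314445, minus strand), a helix-loop-helix factor of the EBF family, was at 24.3, 23.0 and 21.5 CPM in DKO, against 21.8, 21.1 and 21.5 CPM in WT. It was the only one of the 8 whose DKO and WT libraries overlapped, with a log2 fold change of 0.10 (SE 0.13, edgeR adjusted p = 0.667).

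Calb2 and Cacna2d2 concern calcium. Calb2 (ENSMUSG00000003657.9, chromosome 8, 110137502 to 110168210, minus strand) encodes calretinin, a calcium-binding protein also made by other neurons. It was at 11.8, 16.2 and 11.8 CPM in DKO, against 5.38, 6.07 and 7.42 CPM in WT. This was the largest difference among the 8 genes, a log2 fold change of 1.08 (SE 0.22, edgeR adjusted p = 0.0163), from 175 to 540 counts per library. Cacna2d2 (ENSMUSG00000010066.15, chromosome 9, 107399612 to 107529343, plus strand), an auxiliary subunit of voltage-gated calcium channels, was at 75.4, 79.5 and 69.0 CPM in DKO, against 55.9, 54.4 and 58.2 CPM in WT. The groups were apart, but with a log2 fold change of 0.41 (SE 0.17) the edgeR adjusted p was 0.143.

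The 3 calls were not stable when 1 library was left out, although the log2 fold changes stayed positive. Those fold changes ran from 0.90 to 1.2 for Calb2, 0.56 to 0.76 for Ndnf and 0.33 to 0.46 for Trp73. The number of calls over all genes changed as well, to between 450 and 3178. Calb2 was no longer called without DKO replicate 2 (0.90, edgeR adjusted p = 0.0565), WT replicate 1 (0.97, 0.0732) or WT replicate 2 (1.05, 0.0692). Ndnf was not called without DKO replicate 2 (0.69, edgeR adjusted p = 0.0627) or 3 (0.56, 0.101), nor without WT replicate 1 (0.76, 0.0518), 2 (0.60, 0.106) or 3 (0.57, 0.108). Trp73 was not called without any 1 of the 6 DKO and WT libraries, with log2 fold changes of 0.33 to 0.46 and edgeR adjusted p of 0.0724 to 0.160. Smarca1 KO replicate 2 is in neither group of this comparison, but it enters the filter, the TMM factors and the shared estimate of the spread. Without it 5 of the 8 were called: Calb2, Ndnf and Trp73 with Lhx1 (0.47, edgeR adjusted p = 0.0277) and Cacna2d2 (0.41, 0.00564). Without Smarca1 KO replicate 3 the called genes were 4, with Reln (0.22, 0.0231) added. With the mean level of general neuronal genes as a covariate none of the 8 was called, and Calb2 was at 0.57 (edgeR adjusted p = 0.192), Ndnf at 0.34 (0.306) and Trp73 at 0.49 (0.115). Each WT library was lower in neuronal genes than each mutant library, so this fit cannot separate that level from genotype. Fewer of all genes were called with it too.

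**Figure D2:**
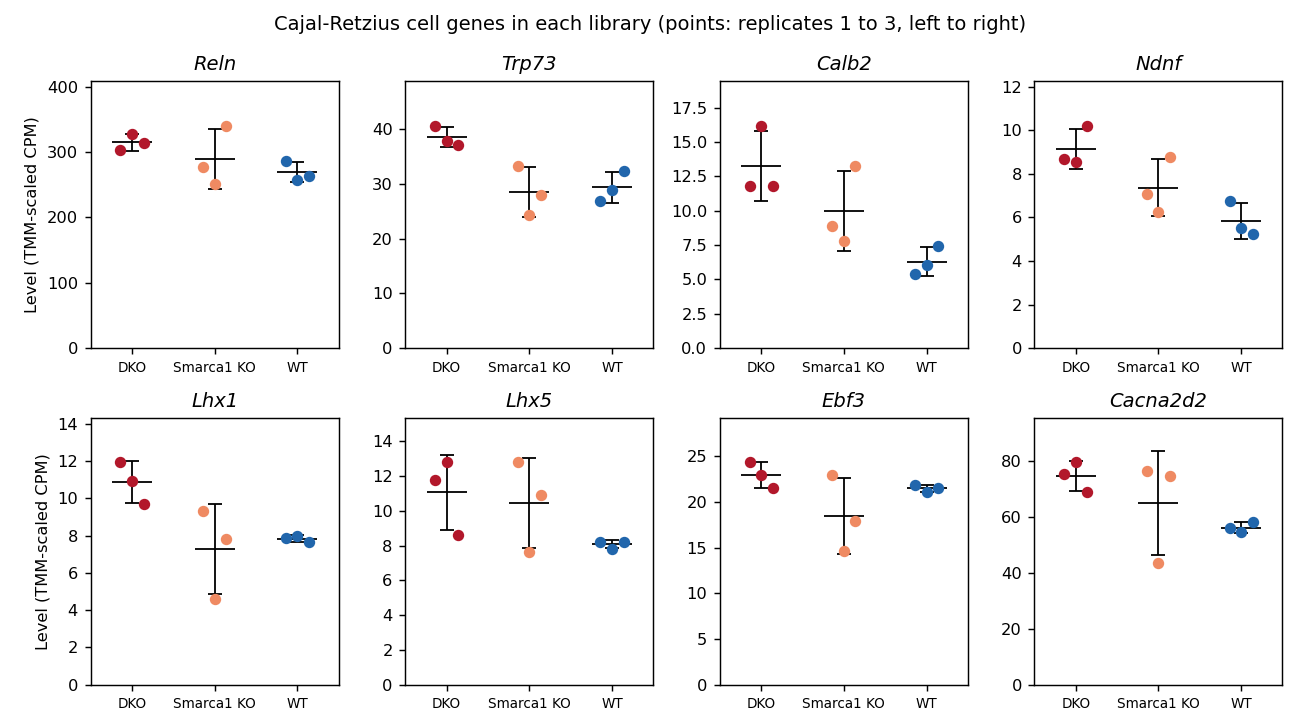
TMM-scaled CPM of the 8 Cajal-Retzius genes in each library, 1 panel per gene, with DKO left of Smarca1 KO and WT, points for libraries and lines for the group mean and SD. For Calb2 the 3 DKO libraries lie between 11.8 and 16.2 CPM and the WT libraries between 5.38 and 7.42 CPM, and Smarca1 KO replicate 2 is the lowest library of its group for all 8 genes.

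DKO against Smarca1 KO sets the added Cre allele against a shared Smarca1 -/- background. None of the 8 genes passed edgeR's test, against 4.39% of all genes tested in either direction and 1.73% that rose. The unadjusted p was under 0.05 for 3 of the 8 (Trp73, Lhx1 and Ebf3) and for 18.4% of all genes, and DESeq2's Wald test called Trp73 alone (0.43, adjusted p = 0.00765). All 8 differences were again positive, with a median log2 fold change of 0.31, against 0.0041 over all genes. Trp73 came nearest, at 40.7, 37.9 and 37.2 CPM in DKO, against 33.3, 24.3 and 28.1 CPM in Smarca1 KO, a log2 fold change of 0.43 (SE 0.11, edgeR adjusted p = 0.0590). Lhx1 was at 11.9, 10.9 and 9.71 CPM in DKO, against 9.33, 4.61 and 7.83 CPM in Smarca1 KO, with a log2 fold change of 0.57 (SE 0.21, edgeR adjusted p = 0.177). Trp73 and Lhx1 were the 2 of the 8 whose DKO libraries all lay above the Smarca1 KO libraries, as 9.72% of all genes did.

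For the other 6 genes the 2 groups overlapped. The log2 fold changes were 0.41 for Calb2, 0.32 for Ndnf, 0.31 for Ebf3, 0.20 for Cacna2d2, 0.12 for Reln and 0.08 for Lhx5, with edgeR adjusted p from 0.259 to 0.890. Reln was at 277, 251 and 340.4 CPM in Smarca1 KO, a range that spans the DKO libraries. Cacna2d2 was at 76.3, 43.3 and 74.8 CPM in Smarca1 KO, so replicate 2 alone lay below the DKO libraries of 69.0 to 79.5 CPM. Without that replicate Lhx5 (-0.10) and Cacna2d2 (-0.02) turned negative, and the log2 fold change of Trp73 was 0.33 (edgeR adjusted p = 0.145). Without Smarca1 KO replicate 1, Trp73 (0.56, edgeR adjusted p = 0.0202) and Ebf3 (0.50, 0.0285) were called.

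Smarca1 KO against WT asks what Smarca1 loss alone goes with. None of the 8 genes passed edgeR's test, which 0.336% of all genes tested did and 0.139% did by rising. DESeq2 called none of the 8 either, and the unadjusted p was under 0.05 for 1, Calb2, and for 18.9% of all genes. The median log2 fold change was 0.16, against 0.010 over all genes. Calb2 was at 8.91, 7.78 and 13.3 CPM in Smarca1 KO, against 5.38, 6.07 and 7.42 CPM in WT. It was the only 1 of the 8 with all Smarca1 KO libraries above WT, which 12.5% of all genes were, and its log2 fold change was 0.67 (SE 0.22, unadjusted p = 0.0127, edgeR adjusted p = 0.175). The log2 fold changes of Lhx5 (0.37), Ndnf (0.33), Cacna2d2 (0.21) and Reln (0.10) were positive and those of Trp73 (-0.04), Lhx1 (-0.11) and Ebf3 (-0.21) negative, with edgeR adjusted p from 0.285 to 0.879. Without Smarca1 KO replicate 2, Cacna2d2 was called at 0.42 (edgeR adjusted p = 0.0378), and Trp73 (0.06) and Lhx1 (0.13) were positive. The 3 comparisons share libraries, so their values are not independent of each other.

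**Figure D3:**
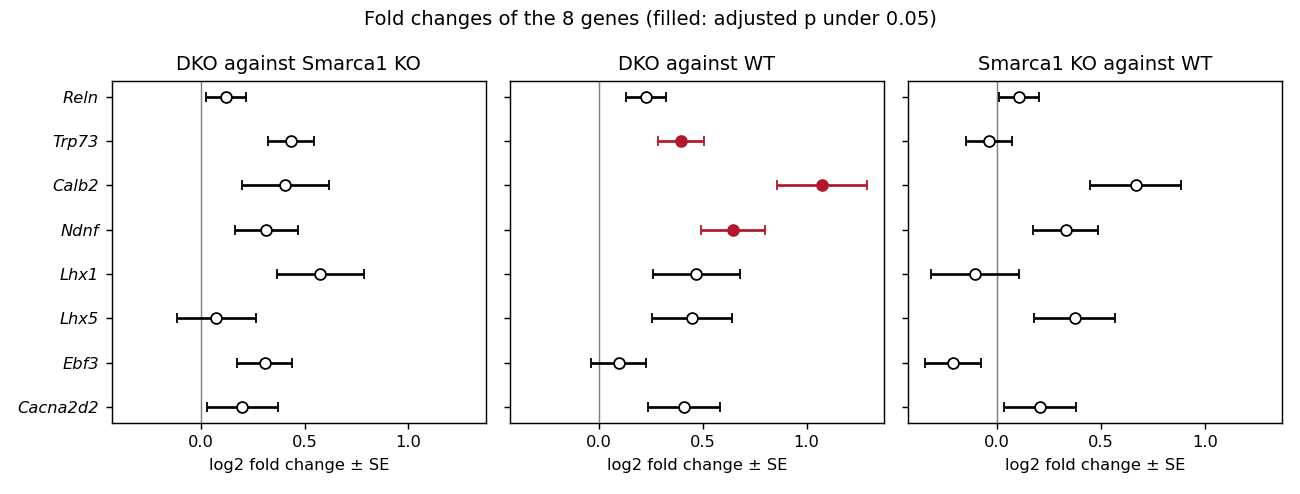
Log2 fold changes of the 8 genes with their standard errors in the 3 comparisons, 1 panel each. Calb2, Ndnf and Trp73 in DKO against WT, at 1.08, 0.65 and 0.39, are the only values with an edgeR adjusted p under 0.05.

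Correlations among the 8 genes within groups were lower at the median without Smarca1 KO replicate 2, though not for every pair. Over the 9 libraries the Pearson correlation of log2 CPM among the 28 pairs of genes ran from 0.14 to 0.91, with a median of 0.67. After the group means were taken out the range was -0.13 to 0.95, with a median of 0.54. Without Smarca1 KO replicate 2, a setting added after seeing the data, the range within groups was -0.87 to 0.90 and the median 0.089. Correlations with the group means left in were not recomputed without it. These are descriptions over libraries that share genotype and tissue. Lhx1 and Cacna2d2 correlated at 0.95 within groups and at 0.48 without that library. Lhx1 with Ebf3 was at 0.94 and at 0.89 without it, and Lhx5 with Cacna2d2 at 0.87 and 0.90. Reln and Ndnf correlated at 0.81 within groups and at 0.71 without it, while Trp73 and Ndnf were at -0.13 and -0.87.

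The mean log2 deviation of the 8 genes was 0.28, 0.34 and 0.17 in DKO replicates 1 to 3, 0.11, -0.42 and 0.12 in Smarca1 KO, and -0.20, -0.24 and -0.17 in WT. DKO libraries were thus the highest and Smarca1 KO replicate 2 the lowest of all 9. Values of diencephalic genes are given beside these, with Otp and Sim1 chosen after their values were seen. Otp, a diencephalic homeodomain factor, measured 3.55, 8.45 and 4.09 CPM in DKO libraries, 3.74, 0 and 8.05 CPM in those of Smarca1 KO, and 2.20, 2.01 and 2.39 CPM in WT libraries. Sim1, which marks neighbouring diencephalic cells, measured 3.06, 4.53 and 3.40 CPM in DKO libraries, 2.47, 0.068 and 2.99 CPM in those of Smarca1 KO, and 1.74, 1.80 and 1.24 CPM in WT libraries. Smarca1 KO replicate 2, lowest in Cajal-Retzius genes, had next to no Otp or Sim1. Of the 11 tested diencephalic genes it was the lowest of the 9 libraries for 5 (Tcf7l2, Olig3, Sim1, Otp and Barhl2) and not for the other 6, so its mean rests on a few genes near 0. The mean log2 deviation of all 11 tested diencephalic genes was 0.46, 0.47 and -0.06 in DKO, 0.36, -1.32 and 0.21 in Smarca1 KO, and 0.00, -0.10 and -0.02 in WT. The summed level of all 20 genes of that list was 107 to 155 CPM in DKO. It was 96.1 to 145 CPM in Smarca1 KO and 110 to 132 CPM in WT. Nkx2-1 was the largest part of this sum in each library, at 46.69 to 84.02 CPM. That gene is also on the list of GABAergic interneuron genes used below, so the sum does not stand for diencephalic RNA alone. Otp, Olig3, Barhl1 and Rax were among the genes at 0 in Smarca1 KO replicate 2. Of the 20 genes 11 passed the filter, and none was called by edgeR or DESeq2 in any comparison. In DKO against WT, Sim1 (1.19, edgeR adjusted p = 0.0136) and Olig3 (1.29, 0.0151) rose without Smarca1 KO replicate 2, and these with Otp (1.27, 0.0281) when only the 2 groups were fitted. An unadjusted p under 0.05 was found for 2 of them in DKO against Smarca1 KO, where Barhl2 had the smallest (0.52, edgeR adjusted p = 0.174). It was found for 1 in DKO against WT, Lef1 (-0.35, edgeR adjusted p = 0.120), and for 0 when Smarca1 KO was set against WT. General neuronal genes were at log2 deviations of -0.02, 0.21 and 0.16 in DKO, -0.06, -0.05 and 0.27 in Smarca1 KO, and -0.12, -0.22 and -0.18 in WT, so the WT libraries were the 3 lowest in these genes. The part of diencephalic and general neuronal RNA in the differences of the 8 genes was not tested beyond the fits with their levels as a covariate. With the diencephalic level as a covariate, Calb2 (0.97, edgeR adjusted p = 0.0273) and Cacna2d2 (0.25, 0.0215) were called in DKO against WT.

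**Figure D4:**
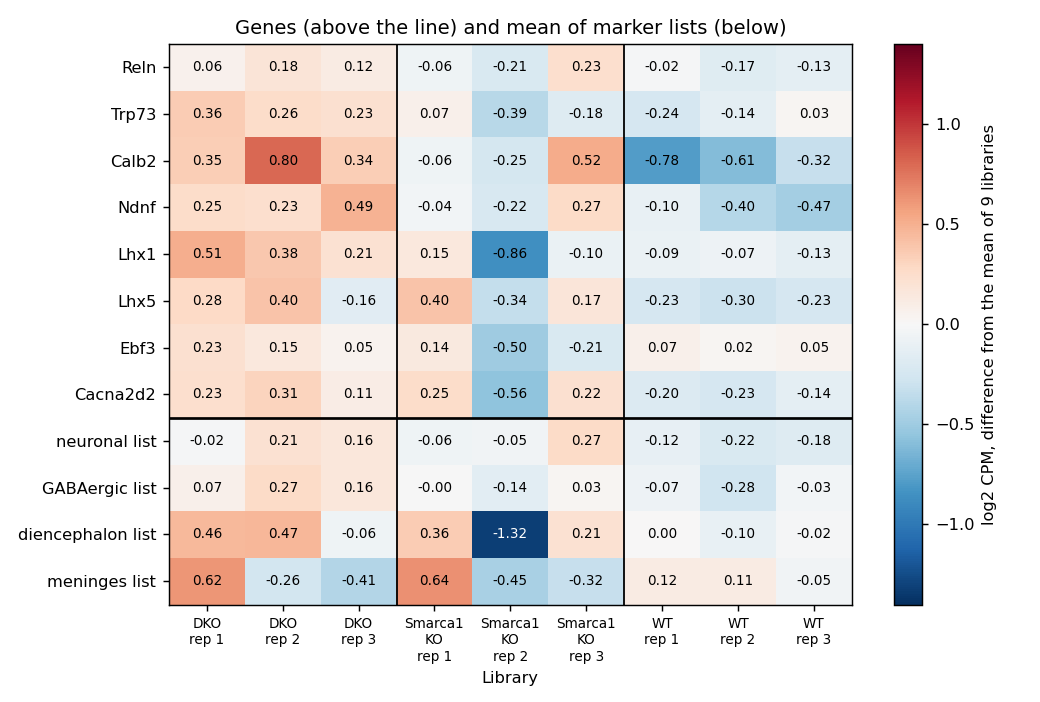
Log2 deviation of each of the 8 genes from its mean over the 9 libraries, with the mean deviation of diencephalic, neuronal, GABAergic and meningeal genes beside them, libraries ordered DKO, Smarca1 KO and WT. Smarca1 KO replicate 2 is low in most Cajal-Retzius genes, with a mean of -0.42, and in diencephalic genes, at -1.32.

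Other genes known from Cajal-Retzius cells are given from a list. Of 18 such genes, all tested, none was called in DKO against Smarca1 KO, 1 was lower and none higher in DKO against WT, and none was called in Smarca1 KO against WT. Their median log2 fold changes were 0.09, 0.15 and -0.02 in these comparisons, and 2, 5 and 4 of them had an unadjusted p under 0.05. With 4.39%, 12.0% and 0.336% of all genes called, such counts among 18 genes are near the background. DESeq2 called none, 3 and 1. Nhlh2, a neuronal helix-loop-helix factor, was at 35.9, 31.9 and 33.2 CPM in DKO, against 39.1, 41.3 and 40.2 CPM in WT, and fell by 0.25 (SE 0.06, edgeR adjusted p = 0.0217), a call lost without DKO replicate 2 or 3 or any WT replicate. Nr2f2, a nuclear receptor of caudal and ventral forebrain, was at 208, 202 and 208 CPM in DKO, against 162, 83.1 and 153 CPM in Smarca1 KO. The low value was again Smarca1 KO replicate 2, and the log2 fold change of 0.63 (SE 0.19) had an edgeR adjusted p of 0.109. Without that library Nr2f2 was called, at 0.39 against Smarca1 KO (edgeR adjusted p = 0.0134) and 0.43 against WT (0.00251).

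Downstream of reelin, the receptor and signalling genes moved in both directions. Of 29 pathway genes, all tested, 5 rose and 2 fell in DKO against WT, 1 rose in DKO against Smarca1 KO and none was called in Smarca1 KO against WT, with median log2 fold changes of 0.05, -0.02 and 0.01. Of all genes, 12.0%, 4.39% and 0.336% were called in these comparisons. In Smarca1 KO against WT, DESeq2 called 1 and the unadjusted p of 2 was under 0.05. Itga3, the integrin alpha3 chain to which reelin has been reported to bind, measured 23.7, 24.96 and 27.6 CPM in DKO libraries, 15.2, 11.7 and 16.2 CPM in those of Smarca1 KO, and 12.1, 10.7 and 13.04 CPM in WT libraries. It rose by 1.09 against WT (SE 0.13, edgeR adjusted p = 0.00195) and by 0.83 against Smarca1 KO (SE 0.12, edgeR adjusted p = 0.00702). Both Itga3 calls were lost with the Y-linked or GABAergic covariate, and that against Smarca1 KO with effective-length offsets too (0.63, edgeR adjusted p = 0.134). With either covariate few of all genes were called, as given in the closing section, so their losses say little about Itga3 itself. In DKO against WT the protease inhibitor Serpine2 also rose (0.65, edgeR adjusted p = 0.0299), while the ephrin ligand Efnb1 (-0.31, 0.0155) and Rapgef1, the Rap1 activator downstream of Crk (-0.23, 0.0307), fell. The 3 core genes of the pathway are given next, chosen after their values were seen. The receptor Vldlr was at 66.8, 74.1 and 76.6 CPM in DKO, against 62.0, 55.9 and 59.2 CPM in WT, and rose by 0.30 (SE 0.08, edgeR adjusted p = 0.0414). For the other receptor, Lrp8, the log2 fold change was -0.05 (SE 0.08, edgeR adjusted p = 0.687), and for the adaptor Dab1 it was 0.10 (SE 0.08, 0.441), with DKO and WT libraries overlapping for both. With 1 library left out, 1 to 6 genes of the list rose and 0 to 2 fell in DKO against WT. The lowest counts, 1 rising and at most 1 falling, came without DKO replicate 2 or 3 or any WT replicate.

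Genes of the cortical hem and other sources of Cajal-Retzius cells were mixed. Of 27 listed genes 25 were tested, and DKO against WT had 2 that rose and 3 that fell. DKO against Smarca1 KO had 1 of each, and none was called in Smarca1 KO against WT. There DESeq2 called 5 and the unadjusted p of 8 was under 0.05, as it was for 18.9% of all genes. Over all genes edgeR called 12.0%, 4.39% and 0.336% in these comparisons, in this order. In DKO against WT, Tgfa, a growth factor ligand that marks the pallial border, rose by 1.06 (SE 0.22, edgeR adjusted p = 0.0189) and Ttr, a choroid plexus transport protein, by 0.90 (SE 0.24, 0.0377). The Wnt ligand Wnt7b fell (-0.35, edgeR adjusted p = 0.0207), as did Dmrta1 (-0.64, 0.0309), a DM-domain factor of cortical progenitors. In DKO against Smarca1 KO the hem ligand Wnt5a was at 30.96, 27.9 and 28.4 CPM in DKO embryos, against 23.7, 16.04 and 20.7 CPM in Smarca1 KO embryos, and rose by 0.53 (SE 0.13, edgeR adjusted p = 0.0488), and Wnt7b fell by 0.42 (SE 0.08, 0.0154). With 1 library left out, Wnt5a kept this call only without Smarca1 KO replicate 1, and Wnt7b lost its call without DKO replicate 2 or 3. Against WT, Tgfa and Dmrta1 were not called without DKO replicate 2 or 3 or any WT replicate, Ttr without DKO replicate 1 or 3 or any WT replicate, and Wnt7b without DKO replicate 2 or 3 or WT replicate 1 or 2.

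Cortical patterning factors, some of which repress the Cajal-Retzius fate in mice, mostly fell in DKO against WT. Of 9 genes, all tested, 7 fell and none rose in DKO against WT, with a median log2 fold change of -0.42. Of all genes tested, 12.0% were called in that comparison, in either direction. Emx1, a homeodomain factor of cortical progenitors, measured 57.9, 51.2 and 50.7 CPM in DKO libraries, 71.8, 73.8 and 59.4 CPM in those of Smarca1 KO, and 80.6, 83.1 and 81.6 CPM in WT libraries. It fell by 0.62 against WT (SE 0.08, edgeR adjusted p = 0.00335) and by 0.36 against Smarca1 KO (SE 0.08, 0.0408), where it was the 1 gene of the list called. Lhx2, a LIM homeodomain factor that suppresses hem fate in mice, was at 299, 271 and 265 CPM in DKO, against 404, 431 and 408 CPM in WT, and fell by 0.58 (SE 0.09, edgeR adjusted p = 0.00553). The Notch target Hes1 (-0.53, edgeR adjusted p = 0.0150) and the nuclear receptor Nr2f1 (-0.19, 0.0313) fell too. In Smarca1 KO against WT only Nr2f1 was called (-0.35, SE 0.05, edgeR adjusted p = 0.0158), a call lost without any 1 WT replicate. The median of the list was -0.32, DESeq2 called 5 of the 9, each lower, and the unadjusted p was under 0.05 for 8. That p was under 0.05 for 18.9% of all genes. Left-out libraries changed the number that fell in DKO against WT to between 2 and 9: it was 2 without DKO replicate 2 or 3 or any WT replicate. Emx1 against Smarca1 KO was not called without DKO replicate 2 or 3, Smarca1 KO replicate 1 or 2, or any WT replicate.

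Markers of other cells that the tissue could hold are given for the same comparisons, and their part in the values of the 8 genes was not tested beyond the fits with a covariate. Of 15 general neuronal genes 4 rose in DKO against WT (Stmn2 0.44, Ina 0.44, Gap43 0.52 and Snap25 0.50, edgeR adjusted p from 0.0279 to 0.0494) and none fell, with a median log2 fold change of 0.28. For this and the following lists, 5.61% of all genes rose in DKO against WT and 12.0% were called in either direction. In Smarca1 KO against WT none of the neuronal genes was called by edgeR, DESeq2 called 3, and the median was 0.19. The unadjusted p of 9 was under 0.05, as it was for 18.9% of all genes. Of 20 GABAergic interneuron genes 7 rose and none fell in DKO against WT, with a median of 0.28, Maf (0.48), Dlx5 (0.30), Slc32a1 (0.36) and Npy (0.65) first among them by p. In DKO against Smarca1 KO, Sp8 (0.38, edgeR adjusted p = 0.0243) was the 1 GABAergic gene called by edgeR, and DESeq2 called 3. Sp8 was not called without DKO replicate 1 or 2 or Smarca1 KO replicate 2. All 20 GABAergic differences were positive there, with a median of 0.19. The unadjusted p of 9 was under 0.05, against 18.4% of all genes. For 9 of them each DKO library lay above each Smarca1 KO library, against 9.72% of all genes. In the same comparison no neuronal gene was called by edgeR or DESeq2, although 3 had an unadjusted p under 0.05, the smallest that of Elavl4 (-0.17, edgeR adjusted p = 0.114). Some of these neurons also make reelin or calretinin later in development, so neither gene belongs to Cajal-Retzius cells alone. Of 10 preplate and subplate genes 9 were tested, and Moxd1 (1.10) and Hs3st4 (0.88) rose and Nxph4 (-0.57) and Lpar1 (-0.56) fell in DKO against WT, while Moxd1 (1.13) rose against Smarca1 KO. Against WT, Hs3st4 and Lpar1 were not called without DKO replicate 2 or 3 or any WT replicate, nor Moxd1 without DKO replicate 3 or WT replicate 2 or 3, while Nxph4 was called without any 1 library. The call of Moxd1 against Smarca1 KO was lost without any 1 DKO replicate, Smarca1 KO replicate 1 or 2, or WT replicate 2. Of 8 genes of olfactory bulb projection neurons 7 were tested, and the potassium channel gene Kcna2 was the only 1 called, at 0.89 against WT and 0.80 against Smarca1 KO. None of 22 meningeal genes was called in any comparison by edgeR, and DESeq2 called 1, in DKO against WT. Of these genes 0, 2 and 3 had an unadjusted p under 0.05, with medians of -0.02, -0.19 and -0.11, in DKO set against Smarca1 KO, then against WT, and in Smarca1 KO set against WT. Without DKO replicate 1 and Smarca1 KO replicate 1, in which they were highest, 12 meningeal genes fell in DKO against WT, and the 8 Cajal-Retzius genes gave 3 calls as before. Leaving out 1 library gave 0 to 10 rising neuronal genes and 0 to 9 rising GABAergic genes in DKO against WT, the fewest without DKO replicate 2 or 3 or any WT replicate.

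**Figure D5:**
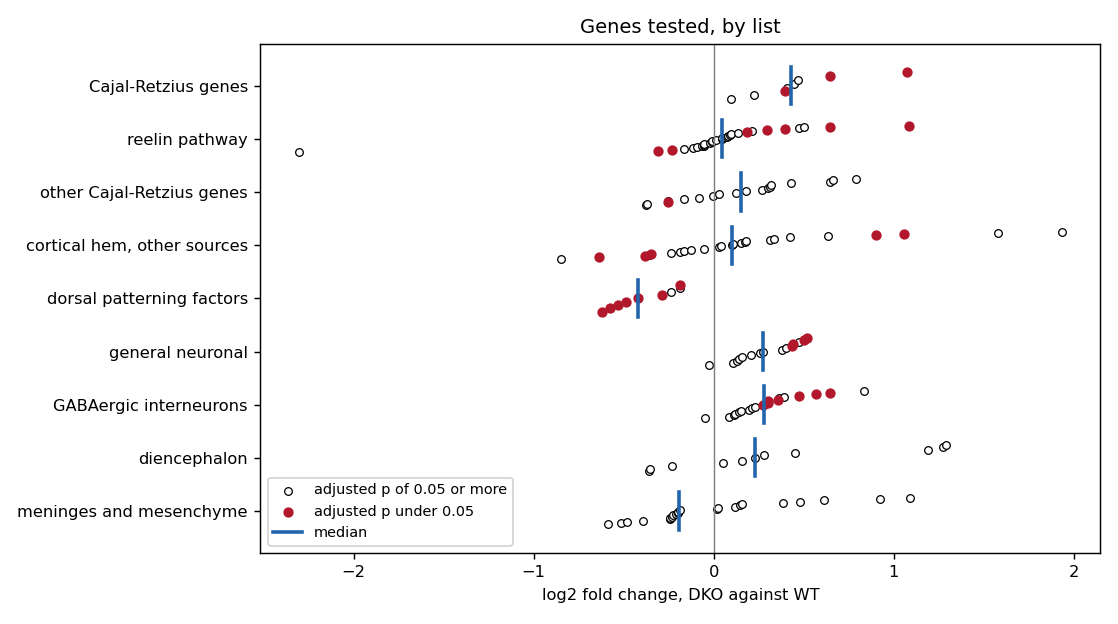
Log2 fold changes in DKO against WT of the tested genes of each list, 1 point per gene, filled where the edgeR adjusted p is under 0.05, with a line at the median. The Cajal-Retzius genes have a median of 0.43 and the patterning factors 1 of -0.42, while reelin pathway genes lie on both sides of 0.

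Genes with the most similar pattern to each of the 4 genes followed here were read from the correlation of log2 CPM over the 9 libraries, as a description. For Reln they were Pnmal2 and Kndc1 (r = 0.99 and 0.98), Ldlrad4, Osbpl2 and Adcy5. Adcy5, an adenylyl cyclase at r = 0.98, measured 48.8, 53.6 and 53.6 CPM in DKO libraries, 43.1, 35.1 and 59.4 CPM in those of Smarca1 KO, and 39.9, 35.8 and 38.7 CPM in WT libraries. For Trp73 they were Abhd4 (r = 0.98), Nucb1, Col27a1, Cdkn1a and Ccdc157. Cdkn1a, the p21 inhibitor of cyclin-dependent kinases and a p53 target gene, measured 21.4, 21.6 and 21.6 CPM in DKO libraries, 16.5, 11.4 and 14.4 CPM in those of Smarca1 KO, and 13.8, 13.6 and 15.1 CPM in WT libraries, at r = 0.97 with Trp73. For Calb2 they were Scml4 (r = 0.98), Tspan13, Vstm2l, Slc27a3 and Faah, and for Ndnf they were Nanos1 (r = 0.97), Ttc19, Reps2, Myrip and Lynx1. The lowest of these 20 correlations was 0.96.

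Some member sequence is shared with other genes. Of the stretches of 31 bases in its transcripts, 4.49% for Trp73, 3.09% for Ebf3, 2.53% for Lhx5, 1.11% for Reln, 0.806% for Cacna2d2 and 0.526% for Ndnf also occurred elsewhere, and none for Calb2 and Lhx1. For Trp73 they all fell in Trp73os, an antisense gene whose exons overlap those of Trp73, with 251 such stretches shared. Antisense exons also overlapped Ebf3 (Gm45278, 244 bases), Reln (Gm10475, 125 bases), Cacna2d2 (Gm17141, 82 bases) and Lhx5 (Gm27199, 69 bases). None of these antisense genes was counted in the tables, and whether counting used strand is not known, so their reads cannot be told apart from those of the 5 genes in the overlaps.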

How the data were processed

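RNA was measured in 9 libraries, 3 per genotype. Per the submitters' processing notes, the transcript tables that the authors deposited come from Salmon 1.4.0; the notes list mm10 and DESeq2 besides, without a role. Per the file headers, the deposited values are estimated counts per transcript, TPM, length and effective length. No index, annotation release or library type is given in the sources used here. Of 116546 transcripts 115977 matched GENCODE M21, and the 569 others held 0.104% to 0.116% of a library's counts.

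Counts were summed to genes and rounded. All libraries entered 1 fit in edgeR 4.0.16 (limma 3.58.1, R 4.3.3) with group means, TMM factors of 0.991 to 1.02 and filterByExpr. The quasi-likelihood F test was adjusted by Benjamini-Hochberg over 15773 genes, with calls at an adjusted p under 0.05. The SE of a log2 fold change was taken as |log2 fold change| over the root of F. The common biological coefficient of variation was 10.2%. No pair of replicates agreed within sampling noise, with a chi-square per degree of freedom of 3.63 to 22.8. Deposited TPM gave levels per length. The steps were tested on simulated counts. DESeq2 1.42.0 and the other alternatives of the closing section were refitted over all genes.

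The 8 genes and all lists were chosen with earlier results of these data known. From each other list, up to 4 called genes with the smallest p were named in DKO against Smarca1 KO and in DKO against WT, or the 1 with the smallest p where none was called. For Reln and each called gene of the 8, the 5 most correlated genes were named (log2 CPM with a prior count of 2, mean log2 CPM of at least 1, no predicted models). Genes outside the rule are said to be chosen after their values were seen.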

Additional observations from a re-analysis of the deposited data

How the results depend on the processing

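Over 22 alternatives the 8 genes gave 176 log2 fold changes per comparison. In DKO against Smarca1 KO 159 kept their direction and side of the threshold, 7 passed it newly and 10 changed sign. In DKO against WT the numbers were 135, 8 and 5, and 28 lost the call, and in Smarca1 KO against WT they were 169, 1 and 6. Calb2 was called in DKO against WT in 16 of the 22 alternatives, Ndnf in 13 and Trp73 in 9. The cause of these changes was not tested. Covariates for diencephalic, neuronal and GABAergic levels, and list counts under each alternative, were added after seeing the data.

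Of the 8 genes, 6 were called in DKO against WT with only those groups fitted, and 0 with the Y-linked, neuronal or GABAergic covariate. The Y-linked level itself went with genotype (R2 of 0.81 over the groups), so the fit with it cannot tell the 2 apart. GABAergic genes were at log2 deviations of 0.07, 0.27 and 0.16 in DKO, and at most 0.03 in the other libraries. The fit with the GABAergic level therefore cannot separate that level from the DKO genotype either. In DKO against Smarca1 KO 1 was called, in place of 0, with genes of at least 1 count, without DKO replicate 1 and Smarca1 KO replicate 1, with the meninges or neuronal covariate, and by DESeq2. With 1 library left out, 0 to 5 were called in DKO against WT, 0 to 2 in DKO against Smarca1 KO and 0 to 1 in Smarca1 KO against WT.

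Of all genes, DKO against Smarca1 KO called 692, but 181 with those groups only, 389 with effective-length offsets, 398 without the 2 libraries highest in meninges markers, 8 with the Y-linked, 1086 with the meninges, 364 with the diencephalon, 1598 with the neuronal and 56 with the GABAergic covariate, 1183 by DESeq2, and 286 to 795 with 1 library left out. DKO against WT called 1887, but 3444 with those groups only, 4 with the Y-linked, 2839 with the meninges, 600 with the neuronal and 7 with the GABAergic covariate, 2877 by DESeq2, and 450 to 3178 with 1 library left out. Smarca1 KO against WT called 53, but 90 with genes of at least 1 count, 607 without the 2 libraries highest in meninges markers, 185 with the meninges and 23 with the neuronal or GABAergic covariate, 727 by DESeq2, and 14 to 72 with 1 library left out.

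Signs turned in DKO against Smarca1 KO for Reln (-0.13) and Ndnf (-0.088) with the Y-linked covariate, Lhx5 (-0.15) and Cacna2d2 (-0.010) with the diencephalon covariate, and Reln (-0.043), Lhx5 (-0.16) and Cacna2d2 (-0.058) with the GABAergic covariate. With 1 library left out, Lhx5 ran from -0.10 (without Smarca1 KO replicate 2) to 0.25, negative without DKO replicate 2 too, and Cacna2d2 from -0.017 (without Smarca1 KO replicate 2) to 0.34. In DKO against WT they turned for Reln with the Y-linked (-0.032), neuronal (-0.050) and GABAergic (-0.017) covariates and for Ebf3 with the diencephalon (-0.0052) and GABAergic (-0.065) covariates. In Smarca1 KO against WT they turned for Reln (-0.12) and Trp73 (0.037) with the neuronal covariate. With 1 library left out there, Reln ran from -0.028 (without Smarca1 KO replicate 3) to 0.19, Trp73 from -0.17 to 0.060 (without Smarca1 KO replicate 2), positive without WT replicate 3 too, and Lhx1 from -0.34 to 0.13 (without Smarca1 KO replicate 2).

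Replicate numbers are shared among the groups, but same-numbered libraries did not deviate together in each pair (correlations from -0.06 to 0.35, and DKO replicate 2 correlated best with Smarca1 KO replicate 3, at 0.16), so the number was not taken as a pairing. With it as a replicate block, 529 genes were called in DKO against Smarca1 KO and 29 in Smarca1 KO against WT, and Trp73 in DKO against WT was at 0.39 (edgeR adjusted p = 0.0538). Calb2, Ndnf, Lhx1 and Lhx5 had 135 to 540 counts in a library, which limits their precision more than that of Reln.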
